A study of Mus musculus with 66 samples.

Results

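RNA from mouse embryonic stem cells labelled GDel2, one of a pair of numbered deletions of a G-quadruplex (G4) at the Praf2 gene, was compared with RNA from wildtype E14 cells. The comparison was chosen by its labels and uses 5 of the 66 samples of the series, 2 GDel2 libraries and 3 wildtype libraries, with the 2 libraries of the other deletion, GDel1, given beside them. Of 55487 gene identifiers in the deposited tables, 15421 had enough reads to be tested. Genes of chromosomes 6 and 8 and of the first 60 Mb of chromosome 11 are treated apart from the rest, since each of these segments is shifted as a whole in GDel2. All groups were untreated E14 cells in serum medium with LIF and inhibitors of GSK and of MEK1/2, which activate Wnt signalling and hold down ERK signalling. Genotype labels are wildtype for the one group and a Praf2 G4 deletion for both GDel1 and GDel2. The labels do not say which bases were removed, whether GDel1 and GDel2 are single clones, or whether replicates were grown as separate cultures, and so p-values measure only the spread between these libraries. RNA was measured as total RNA depleted of ribosomal RNA.

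A G-quadruplex is a folded structure that guanine-rich DNA can form when one strand is freed, for instance opposite the RNA-DNA hybrid of an R-loop. CTCF is the DNA-binding factor at which cohesin stops when it folds chromosomes into loops, and the wider series measured its binding together with R-loops and G-quadruplexes. Praf2 encodes a small membrane protein of the endoplasmic reticulum and Golgi that takes part in vesicle transport.

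The 5 libraries held 12316853 to 18549005 expected counts. Values below are CPM, counts scaled to a common library size, and fold changes are on the log2 scale. All 10 embryonic stem cell markers were tested, with mean levels from 20.6 to 751 TPM over the 5 libraries together. They summed to 2146, 1815 and 1876 TPM in wildtype replicates 1, 2 and 3 and to 1719 and 1386 TPM in GDel2 replicates 1 and 2. Of these markers, 2 were called higher and 4 lower in GDel2, against 17.4% and 15.6% of all genes tested. Fibroblast feeder markers summed to 0.440 to 0.760 TPM in wildtype and to 1.48 and 2.27 TPM in GDel2, with Col3a1, Postn and Dcn at 0 in all 5 libraries. Mitochondrial transcripts took 6.30% to 6.89% of counts in wildtype, 6.19% in GDel2 replicate 1 and 9.60% in GDel2 replicate 2. In GDel1 replicates 1 and 2 they took 9.91% and 4.83%, farther apart than within either other group. Transcripts of the 5 tested genes of the Y-linked list were at or near 0 in both GDel2 libraries. They were present in all wildtype and GDel1 libraries, and are described below with their X-linked partners. All genes placed on the Y chromosome together took 0.0253% to 0.0280% of counts in wildtype and 0.00173% and 0.00124% in GDel2 replicates 1 and 2.

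Praf2 itself was present at 27.5, 28.8 and 30.6 CPM in wildtype, 13.1 and 14.1 in GDel2 and 10.1 and 9.26 in GDel1. The GDel2 libraries lay below every wildtype library and above both GDel1 libraries. The log2 fold change was -1.09 ± 0.11 for GDel2 against wildtype (edgeR adjusted p = 2.01e-04), and -1.59 for GDel1 against wildtype (edgeR adjusted p = 0.00206). GDel2 exceeded GDel1 by 0.50 (edgeR adjusted p = 0.0183). The gene (ENSMUSG00000031149) lies on the plus strand of chromosome X, at 7728571 to 7731063 in RefSeq's GRCm38.p6 annotation. The sources used here do not give the deleted bases. The 250 bases before the annotated start are shown because the labels name a G4 of this gene, without saying where it lies, with every run of at least 3 G or 3 C in capitals (a run of C is a run of G on the other strand).

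Praf2 chrX:7728321-7728570 plus strand: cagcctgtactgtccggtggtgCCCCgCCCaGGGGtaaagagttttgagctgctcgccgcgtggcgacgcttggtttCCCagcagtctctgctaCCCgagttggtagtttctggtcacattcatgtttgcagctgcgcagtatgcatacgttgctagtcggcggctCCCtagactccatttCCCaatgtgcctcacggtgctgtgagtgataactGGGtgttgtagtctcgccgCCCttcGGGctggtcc

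These bases hold 12 GGG matches, 4 on the plus strand and 8 on the other, with 58.4% G and C. Matches are counted with overlaps, so a run longer than 3 counts more than once. The window held no match to the usual G4 pattern, 4 runs of at least 3 G with 1 to 7 bases between them, on either strand. Over 27025 RefSeq promoters of the same length, 16.2% held that pattern and 98.9% held GGG, with a median of 11 matches. The absence of the pattern says only that these letters are not in this window.

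Across the genome, 5099 of the 15421 genes tested differed between GDel2 and wildtype (33.1%), 2688 of them higher (17.4%) and 2411 lower (15.6%), and 931 of the higher and 731 of the lower genes by at least 2-fold. The same fit called 58 genes for GDel1 against wildtype (0.376%) and 4268 for GDel2 against GDel1 (27.7%). These 3 comparisons share libraries. The GDel2 count fell to 3375 without wildtype replicate 2 and lower still without GDel2 replicate 2. Among the wildtype and GDel2 libraries, GDel2 replicate 2 had the highest mitochondrial share, while GDel1 replicate 1 had a higher one. Whether these shares took part in the calls of any comparison was not tested.

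A share of the calls lay on 3 chromosomal segments. Genes of chromosome 6 had a median log2 change of 0.51 (1.42-fold, middle 50% of genes from 0.11 to 0.82), those of chromosome 8 a median of 0.44 (1.36-fold, 0.15 to 0.75), and those of chromosome 11 below 60 Mb a median of 0.54 (1.45-fold, 0.25 to 0.84). On chromosome 6, 534 of 666 genes lay above 0 (80.2%), on chromosome 8, 603 of 721 (83.6%), and on the chromosome 11 segment, 280 of 319 (87.8%). The 3 segments were thus shifted by a like amount and over most of their genes. By library, the medians were 0.50 and 0.53 on chromosome 6 in GDel2 replicates 1 and 2, 0.47 and 0.43 on chromosome 8, and 0.54 and 0.51 on the chromosome 11 segment. The GDel1 medians were -0.01, -0.01 and 0.05. Among genes with a mean of at least 10 CPM, the segment medians were 0.51, 0.45 and 0.53, so the shift was as large in well-covered genes. The shift is a description with no test, because the segments were chosen on such values, and DNA copy number was not analysed here.

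**Figure D1:**
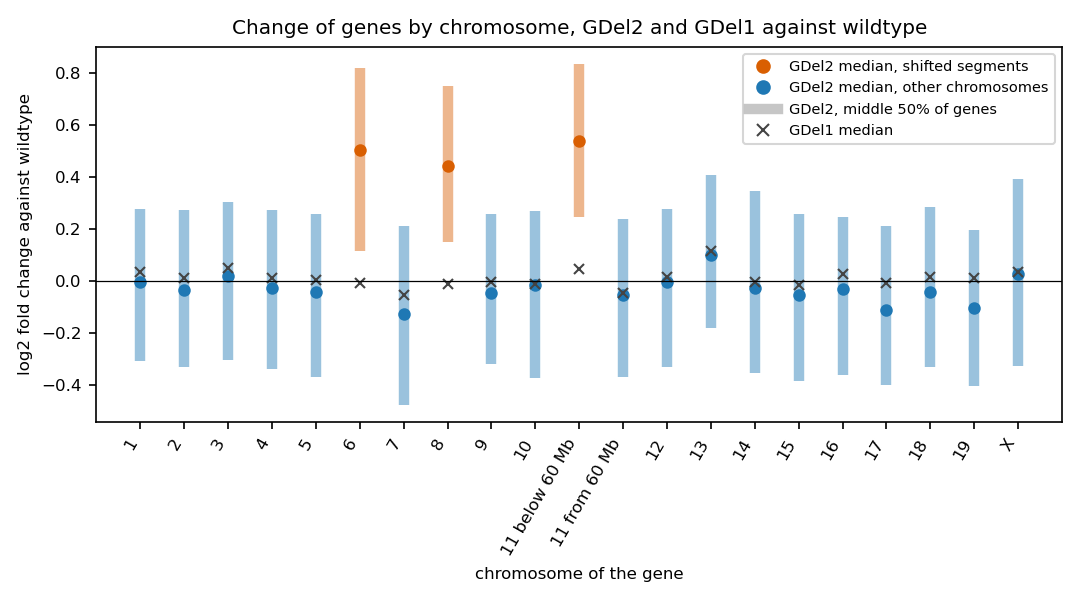
Log2 fold change of genes by chromosome (horizontal axis), as the median of tested genes (points) with the middle 50% of genes (bars) for GDel2 against wildtype, and the median for GDel1 against wildtype (crosses). Chromosome 6 (0.51), chromosome 8 (0.44) and chromosome 11 below 60 Mb (0.54) stand above the rest in GDel2, while the GDel1 medians there are -0.01, -0.01 and 0.05.

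The other 17 chromosomes with no part in the segments had GDel2 medians between -0.13 (chromosome 7) and 0.10 (chromosome 13). On chromosome 11 the shift had an edge: the 109 genes between 50 and 60 Mb had a median of 0.55 and the 129 genes between 60 and 70 Mb a median of 0.08. The 771 genes from 60 Mb on had a median of -0.05. In windows of 10 Mb with at least 10 genes, the 34 windows of the segments had medians from 0.24 to 0.80. Of the 223 other windows, 12 reached 0.24 or more, the highest at 0.64 on chromosome 12 between 40 and 50 Mb with 12 genes. Single windows elsewhere were thus as high as the segments, but no other whole chromosome was.

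On the segments, 342 genes of chromosome 6 were higher (51.4%) and 43 lower (6.46%), 368 genes of chromosome 8 were higher (51.0%) and 40 lower (5.55%), and 180 genes of the chromosome 11 segment were higher (56.4%) and 12 lower (3.76%). Outside the segments, 1683 of 12116 placed genes were higher (13.9%) and 2161 lower (17.8%), a split of 43.8% higher among calls. With scaling factors taken only from genes outside the segments, 2110 were higher and 1762 lower, 54.5% higher among calls, and the median of these genes moved from -0.03 to 0.04. The balance of rises and falls outside the segments therefore depended on the scaling. The count outside the segments was 2479, 2438 and 2523 without wildtype replicates 1, 2 and 3, and 1888 without GDel2 replicate 2.

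To find genes that departed from their own segment, the segment median was taken off before the test. In that fit 220 genes of chromosome 6 passed (33.0%, 102 above their segment and 118 below), 220 of chromosome 8 (30.5%, 122 and 98) and 96 of the chromosome 11 segment (30.1%, 47 and 49). The same fit called 30.6% of genes outside the segments. Genes of the segments therefore departed from their segment's median about as often as other genes departed from 0.

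The genes described next had an established gene symbol, at least 5 CPM in the higher group and groups that did not overlap, and are ranked among called genes that meet these conditions. Under them, the metallothionein genes Mt1 and Mt2 fell the most on chromosome 8 after Ido2, a gene of tryptophan breakdown. They encode small cysteine-rich proteins that bind zinc and copper, and are induced by metals through the transcription factor MTF1. Mt2 fell in GDel2, to 21.8 and 22.5 CPM from 229, 239 and 246 in wildtype. Mt1 had 178, 169.9 and 169.5 CPM in wildtype against 20.5 and 20.5 in GDel2. Both GDel2 values of each gene lay far below wildtype with no overlap, while GDel1 had 258 and 249 CPM of Mt2 and 141 and 144 CPM of Mt1. The log2 fold change was -3.42 ± 0.09 for Mt2 (edgeR adjusted p = 3.42e-07) and -3.07 ± 0.09 for Mt1 (edgeR adjusted p = 3.42e-07). Against their segment they were lower by still more, at -3.87 and -3.52.

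The 250 bases before the RefSeq start of both genes are shown because the genes moved together. Capitals mark TGCACNC or TGCGCNC, the core of the metal response element bound by MTF1, on either strand.

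Mt2 chr8:94172368-94172617 plus strand: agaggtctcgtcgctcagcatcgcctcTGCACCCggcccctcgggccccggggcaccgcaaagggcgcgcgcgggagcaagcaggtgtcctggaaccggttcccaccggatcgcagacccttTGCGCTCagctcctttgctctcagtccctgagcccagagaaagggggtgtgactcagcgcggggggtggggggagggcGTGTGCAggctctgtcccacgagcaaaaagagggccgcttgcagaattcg

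Mt1 chr8:94178839-94179088 plus strand: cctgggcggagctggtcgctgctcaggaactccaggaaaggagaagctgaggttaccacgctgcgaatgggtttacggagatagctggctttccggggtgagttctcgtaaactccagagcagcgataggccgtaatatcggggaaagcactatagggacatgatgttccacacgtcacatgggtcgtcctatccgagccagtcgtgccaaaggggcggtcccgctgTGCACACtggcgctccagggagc

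RefSeq's GRCm38.p6 window before Mt2 held 3 matches, 2 on the plus strand and 1 on the other, and that before Mt1 held 1, while 21.3% of the 27025 promoters held at least 1 and 1.28% held 3 or more. A match is a string of letters and not a measured site. The windows end at the annotated start, so matches beyond it are not counted, and the counts do not compare the whole promoters. After their values were seen, a pair of further genes of metal handling was looked up. Mtf1 stood at 29.5, 30.9 and 31.4 CPM in wildtype and 32.3 and 25.4 in GDel2, with overlapping groups and a log2 fold change of -0.09 ± 0.12 (edgeR adjusted p = 0.610). The zinc exporter gene Slc30a1, another target of MTF1, stood at 34.9, 32.7 and 31.3 CPM in wildtype and 40.6 and 37.8 in GDel2 (log2 fold change 0.25 ± 0.09, edgeR adjusted p = 0.0657). Neither passed, and Slc30a1 lay slightly higher in GDel2, opposite in sign to Mt1 and Mt2.

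Ccnd2, the cyclin D2 gene of the G1 to S transition, departed most from the chromosome 6 median under the same conditions, with 0.221, 0.371 and 0.315 CPM in wildtype and 18 and 21.5 in GDel2 (log2 fold change 5.97 ± 0.27, edgeR adjusted p = 3.92e-06). The transcription factor gene Foxp1 rose in GDel2, to 19.6 and 23.3 CPM from 1.99, 2.16 and 2.68 in wildtype (log2 fold change 3.22 ± 0.17, edgeR adjusted p = 9.95e-06). Mest, an imprinted hydrolase gene expressed from the paternal copy, had 30.2, 31.5 and 30.4 CPM in wildtype against 262 and 284 in GDel2 (log2 fold change 3.15 ± 0.09, edgeR adjusted p = 3.42e-07). These rises remained far above the segment, at 5.47, 2.72 and 2.64 after its median was taken off. The largest falls of chromosome 6 under these conditions were Ccdc136 (-2.09 ± 0.24), Fam221a (-1.94 ± 0.25) and Osbpl3, an oxysterol-binding protein gene (-1.85 ± 0.15), with edgeR adjusted p of 3.50e-04, 5.81e-04 and 7.21e-05. Genes under 5 CPM lie outside this ranking, among them the imprinted gene Calcr of chromosome 6, which had 38 counts over the wildtype libraries and 0 in GDel2 (edgeR adjusted p = 0.00308).

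On chromosome 8, Pou4f2, a transcription factor gene of sensory neurons, stood at 1.1, 2.54 and 1.73 CPM in wildtype and 13.7 and 17.6 in GDel2 (log2 fold change 3.11 ± 0.29, edgeR adjusted p = 1.41e-04). Palld, which encodes the actin-bundling protein palladin, rose from 8.1, 8.41 and 8.72 CPM in wildtype to 61.8 and 68.2 in GDel2 (log2 fold change 2.95 ± 0.12, edgeR adjusted p = 2.31e-06). Sgo2b, a shugoshin family gene, changed by 3.06 ± 0.25 (edgeR adjusted p = 7.38e-05). Ido2 fell from 12.7, 11.2 and 11.6 CPM in wildtype to 0.947 and 0.578 in GDel2 (log2 fold change -3.95 ± 0.22, edgeR adjusted p = 1.19e-05). On the chromosome 11 segment, Nefh, the heavy neurofilament gene, rose in GDel2, to 18.9 and 14.2 CPM from 3.68, 3.53 and 2.84 in wildtype (log2 fold change 2.31 ± 0.18, edgeR adjusted p = 6.25e-05), and Trim7 and Ccnjl changed by 2.31 ± 0.18 and 2.12 ± 0.20 (edgeR adjusted p = 5.54e-05 and 1.38e-04). Pttg1, which encodes securin, the inhibitor of separase, fell from 37.7, 37.6 and 37.8 CPM to 17.8 and 16.6 (log2 fold change -1.13 ± 0.15, edgeR adjusted p = 7.98e-04). The metalloprotease gene Adam19 and the cytokine gene Osm fell, at log2 fold changes of -1.37 and -1.64 (edgeR adjusted p = 1.02e-04 and 8.30e-04). Groups that did not overlap were a condition of this ranking. All 18 of these genes were called in each fit that left out 1 wildtype library.

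**Figure D2:**
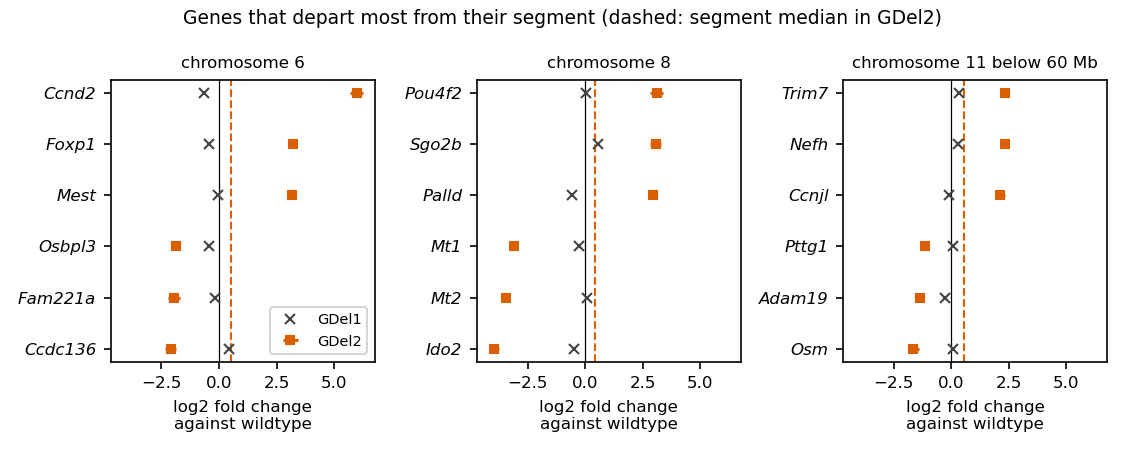
Log2 fold change against wildtype (horizontal axis) of the genes that departed most from their segment among those with at least 5 CPM in the higher group and groups that did not overlap, with squares for GDel2 (bars are standard errors) and crosses for GDel1, and a dashed line at the GDel2 median of the segment. Ccnd2 lies at 5.97 against a segment median of 0.51, Mt2 at -3.42 and Mt1 at -3.07 against 0.44.

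Outside the segments, the 10 largest falls under the same conditions are described first. Aox3, an aldehyde oxidase gene, had 59.8, 57.3 and 49.7 CPM in wildtype against 0.947 and 0.506 in GDel2 (log2 fold change -6.26 ± 0.25, edgeR adjusted p = 2.29e-06). Adgrg6, an adhesion G protein-coupled receptor gene, stood at 60.6, 53.6 and 54.9 CPM in wildtype and 3.08 and 2.46 in GDel2 (log2 fold change -4.35 ± 0.14, edgeR adjusted p = 7.76e-07). Ephx2, the soluble epoxide hydrolase gene, fell from 45.7, 48.2 and 51.9 CPM in wildtype to 3.87 and 2.89 in GDel2 (log2 fold change -3.85 ± 0.22, edgeR adjusted p = 1.47e-05). Each of these 3 genes was well expressed in wildtype and nearly lost in GDel2. The homeobox gene Meis2 fell in GDel2, to 4.73 and 6.36 CPM from 54.3, 43.1 and 48.9 in wildtype (log2 fold change -3.13 ± 0.17, edgeR adjusted p = 9.81e-06). Rbm47, an RNA-binding protein gene, had 34, 28.3 and 30.7 CPM in wildtype against 3.39 and 3.33 in GDel2 (log2 fold change -3.20 ± 0.14, edgeR adjusted p = 3.92e-06). The remaining falls were Cdc42ep1, a Cdc42 effector gene (-4.79 ± 0.35), Ackr3, the atypical chemokine receptor gene (-3.59 ± 0.24), Slc16a9 (-3.49 ± 0.28), Fetub (-3.48 ± 0.21) and Flvcr2 (-3.18 ± 0.21), with edgeR adjusted p of 4.23e-05, 2.96e-05, 7.21e-05, 1.61e-05 and 2.84e-05.

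The 10 largest rises outside the segments under these conditions started from low levels, apart from Plagl1. This gene, an imprinted zinc finger gene, stood at 22.2, 18.6 and 16 CPM in wildtype and 292 and 307 in GDel2 (log2 fold change 3.99 ± 0.19, edgeR adjusted p = 1.04e-05). Plagl1 moved in opposite directions in the pair of deletions, at 5.07 and 2.76 CPM in GDel1 (-2.32, edgeR adjusted p = 0.0159). Pramel6, a gene of the Prame-like family of germ cells and early embryos, rose from 0.515, 0.433 and 0.473 CPM in wildtype to 9.86 and 8.6 in GDel2 (log2 fold change 4.27 ± 0.24, edgeR adjusted p = 1.19e-05). Cd180, a surface protein gene of B cells, rose in GDel2, to 7.73 and 7.23 CPM from 0.368, 0.186 and 0.263 in wildtype (log2 fold change 4.77 ± 0.31, edgeR adjusted p = 2.84e-05). The inhibitory Fc receptor gene Fcgr2b had 0.442, 0.186 and 0.683 CPM in wildtype against 8.68 and 8.17 in GDel2 (log2 fold change 4.21 ± 0.34, edgeR adjusted p = 7.32e-05). The sialophorin gene Spn stood at 0.515, 0.433 and 0.473 CPM in wildtype and 7.89 and 8.17 in GDel2 (log2 fold change 4.07 ± 0.22, edgeR adjusted p = 9.89e-06). In these genes both GDel2 libraries were clear of wildtype, as the ranking required. Tnfrsf8, the CD30 gene, rose from 1.32, 2.04 and 1.1 CPM in wildtype to 18.9 and 15.5 in GDel2 (log2 fold change 3.53 ± 0.23, edgeR adjusted p = 2.84e-05). The growth cone gene Gap43 rose in GDel2, to 5.6 and 7.73 CPM from 0.368, 0.186 and 0.368 in wildtype (log2 fold change 4.41 ± 0.31, edgeR adjusted p = 4.00e-05). Tmem28, Igfbp7 and Duox1 changed by 4.11 ± 0.37, 3.80 ± 0.36 and 3.78 ± 0.43, with edgeR adjusted p of 1.14e-04, 1.43e-04 and 3.22e-04.

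**Figure D3:**
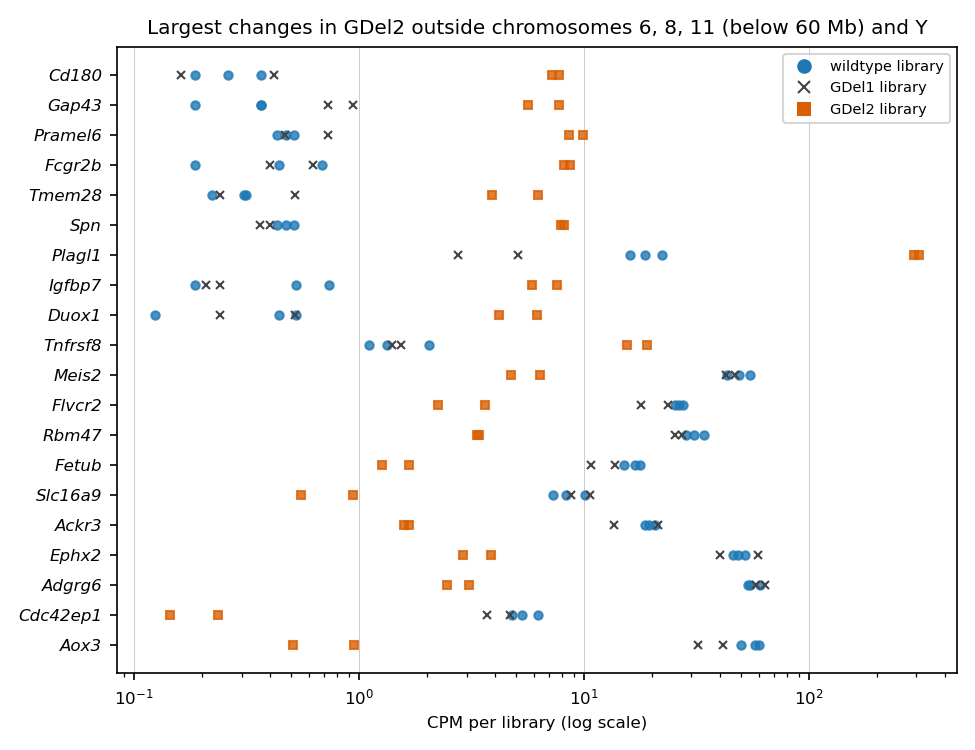
CPM of each library (log axis) for the 10 largest rises and 10 largest falls outside the segments, with circles for wildtype, squares for GDel2 and crosses for GDel1. In every row the GDel2 squares are clear of the wildtype circles, which the ranking required. Plagl1 in GDel1 lies on the other side of wildtype from GDel2.

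All 20 of these genes were called in each fit that left out 1 library, and all 20 also differed between GDel2 and GDel1. Only Plagl1 among them was called for GDel1 against wildtype.

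The E14 line carries a Y chromosome, whose genes Uty, Ddx3y, Eif2s3y and Uba1y have partners on the X chromosome that encode closely related proteins. Uty had 108, 92.2 and 98.8 CPM in wildtype and no count in GDel2, which puts it at least 877-fold lower (taking 3 counts as the most that could be missed in the group). Uba1y, at 6.62, 5.75 and 7.14 CPM in wildtype, and Zfy1, at 1.69, 1.24 and 0.998 CPM, also had 0 counts in GDel2, at least 57.8-fold and 11.2-fold lower. Eif2s3y fell from 75.8, 78.3 and 83 CPM to 1 count (2106-fold lower, 95% interval 378 to 83199), and Ddx3y from 66.1, 57.3 and 64.9 CPM to 4 counts (416-fold lower, 95% interval 162 to 1526). The intervals cover counting error only. All 5 tested members of the Y-linked list of 14 were called lower, with a median of -9.64, or -8.62 with genes at 0 placed at their bound. Of 6 tested genes placed on the Y chromosome, 5 were called lower, and 1 had a log2 change above 0 and was not called.

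Partners on the X chromosome did not move as a group: of 8 tested, 1 was higher and 1 lower, with a median of -0.04 against 0.01 over all genes. Ddx3x, the helicase partner of Ddx3y, had 547, 546 and 571 CPM in wildtype against 676 and 762 in GDel2 (log2 fold change 0.37 ± 0.10, edgeR adjusted p = 0.0183). Uba1, a ubiquitin-activating enzyme, stood at 795, 793 and 757 CPM in wildtype and 618 and 601 in GDel2 (log2 fold change -0.36 ± 0.10, edgeR adjusted p = 0.0206). Both calls were lost without wildtype replicate 1 (edgeR adjusted p = 0.0774 and 0.0823), replicate 2 (0.0809 and 0.0838) or replicate 3 (0.0563 and 0.0574), or GDel2 replicate 2 (0.140 and 0.115). Without either GDel1 replicate, 3 partners were lower. Kdm6a, the histone demethylase partner of Uty, was at 138, 125 and 123 CPM in wildtype and 107 and 117 in GDel2 (log2 fold change -0.20 ± 0.11, edgeR adjusted p = 0.195). The translation factor gene Eif2s3x stood at 539, 532 and 533 CPM in wildtype and 538 and 658 in GDel2 (log2 fold change 0.16 ± 0.13, edgeR adjusted p = 0.369). Neither of these passed.

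**Figure D4:**
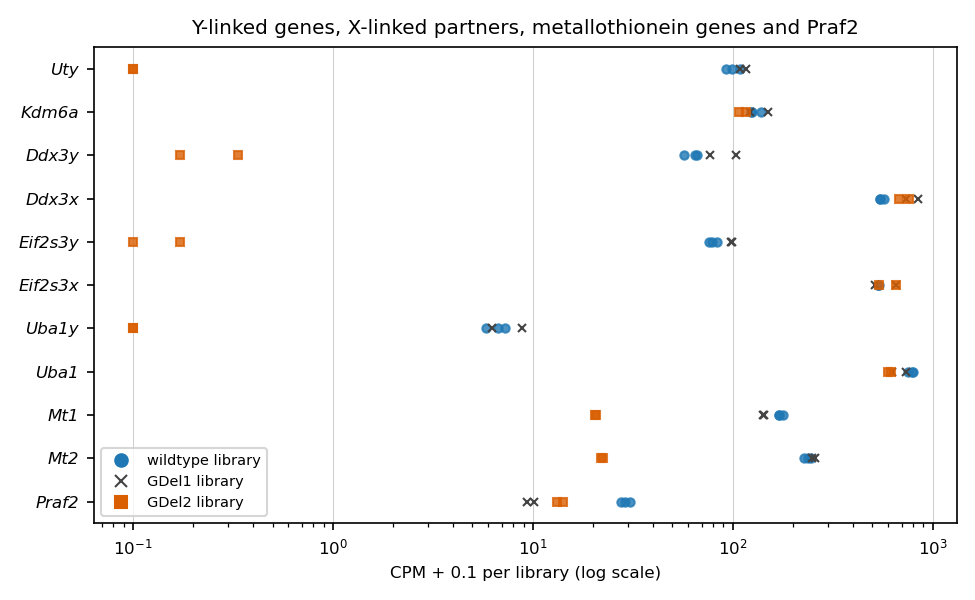
CPM plus 0.1 of each library (log axis) for Y-linked genes above their X-linked partners, the metallothionein genes and Praf2, with circles for wildtype, squares for GDel2 and crosses for GDel1. Uty and Uba1y sit at 0 counts in GDel2 while Kdm6a and Uba1 stay near wildtype, and Mt1 and Mt2 in GDel2 lie at 20.5 to 22.5 CPM.

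Lists of genes with known roles were then read against the shares called outside the segments, 13.9% higher and 17.8% lower, and against the median of -0.03. Members named below beyond the 4 most abundant called members of a list were picked after their values were seen. The lists differ in how many members lie on the shifted segments, so counts are given with the members outside them where these matter. Leaving out a GDel1 replicate gave each list as many called members as the main fit or more. Naive pluripotency genes, imprinted genes and p53 targets were among the lists that gained lower members.

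Genes of the 2-cell-like state, a rare and passing state of embryonic stem cells in which genes of the early embryo are switched on, had 12 of 13 tested members higher and none lower, with a median of 3.06. All lie outside the segments. The list holds 25 genes, and the rest were not tested. Most tested members lay under the filter on low counts in wildtype and were kept through their GDel2 counts. The filter thus favoured rises on this list, and the count and median do not measure the list as a whole. Zscan4f, of a family that acts at telomeres, rose in GDel2, to 4.81 and 4.63 CPM from 0.957, 1.3 and 0.84 in wildtype (log2 fold change 2.19 ± 0.28, edgeR adjusted p = 5.87e-04). Zscan4d had 0.515, 0.433 and 0.315 CPM in wildtype against 3.24 and 4.19 in GDel2 (log2 fold change 3.15 ± 0.33, edgeR adjusted p = 2.31e-04). Gm5662 stood at 0.368, 0.247 and 0.368 CPM in wildtype and 3.87 and 2.96 in GDel2 (log2 fold change 3.35 ± 0.43, edgeR adjusted p = 6.17e-04). Levels remained low in absolute terms: the list summed to 8.29 to 10.5 CPM in wildtype, 38.3 and 38.0 in GDel2, and 6.68 and 6.56 in GDel1. Zscan4c (2.72 ± 0.56), Zscan4a (2.70 ± 0.58) and Zscan4e (2.95 ± 0.58) also rose. The calls of Zscan4c and Zscan4a were lost without GDel2 replicate 2 (edgeR adjusted p = 0.0511 and 0.0753). These are families of close copies whose reads can be shared, and in bulk RNA more cells in the state and more RNA per cell cannot be told apart.

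Targets of Wnt signalling, the pathway that the GSK inhibitor in the medium drives, had 7 of 13 tested members lower and 1 higher, with a median of -0.76. Outside the segments these were 7 and 1 of 10, with a median of -1.18. Apcdd1, a secreted Wnt inhibitor gene, fell from 42.2, 43.9 and 37.8 CPM in wildtype to 11.8 and 10.3 in GDel2 (log2 fold change -1.90 ± 0.13, edgeR adjusted p = 2.96e-05). The receptor gene Fzd7 fell in GDel2, to 27.1 and 26.8 CPM from 62.5, 61.4 and 63.5 in wildtype (log2 fold change -1.21 ± 0.09, edgeR adjusted p = 5.14e-05). Axin2, the feedback inhibitor most often used as a readout, had 25.9, 24 and 25.5 CPM in wildtype against 16.8 and 12.9 in GDel2 (log2 fold change -0.76 ± 0.14, edgeR adjusted p = 0.00316). The transcription factor genes Lef1 and Sp5 were low in wildtype, at 1.32, 1.42 and 1.31 CPM and 2.06, 1.92 and 2.31 CPM, and lower in GDel2, at 0.316 and 0.0723 CPM and 0.237 and 0.506 CPM (edgeR adjusted p = 0.00371 and 0.00304). Their log2 fold changes were -2.79 ± 0.51 and -2.46 ± 0.43. Ccnd1, the cyclin D1 gene, was the member that rose, at 95, 101 and 94.4 CPM in wildtype and 149 and 149 in GDel2 (log2 fold change 0.62 ± 0.08, edgeR adjusted p = 5.84e-04). The count of lower members was 6 or 7 in each fit that left out 1 library, and 2 members were higher without either GDel1 replicate. GDel1 had a median of -0.41 on this list, with no member called.

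Genes that respond to ERK, the kinase below the inhibited MEK1/2, had 9 of 17 tested members higher and 2 lower (7 and 2 of 14 outside the segments), with a median of 0.59. Etv4, an ETS transcription factor gene, stood at 15.8, 15.2 and 14.1 CPM in wildtype and 49.6 and 47.8 in GDel2 (log2 fold change 1.70 ± 0.10, edgeR adjusted p = 1.78e-05). Spry4, a feedback inhibitor of the pathway, rose from 15.2, 15.6 and 13 CPM in wildtype to 43.7 and 30 in GDel2 (log2 fold change 1.34 ± 0.23, edgeR adjusted p = 0.00329). The immediate early gene Egr1 was at 0.294, 0.433 and 0.158 CPM in wildtype and 1.42 and 1.16 in GDel2 (log2 fold change 2.12 ± 0.45, edgeR adjusted p = 0.00697). Myc rose in GDel2, to 19.2 and 13.1 CPM from 8.68, 9.03 and 8.03 in wildtype (log2 fold change 0.91 ± 0.18, edgeR adjusted p = 0.00486). Spred2, on the chromosome 11 segment, changed by 0.57 ± 0.09, about as much as its segment, with 0.04 left after the segment median was taken off (edgeR adjusted p = 0.812). Against these, Etv1, of the same ETS family as Etv4, had 83, 77.5 and 84 CPM in wildtype against 29.8 and 38.7 in GDel2 (log2 fold change -1.25 ± 0.12, edgeR adjusted p = 1.52e-04). Etv4 and Etv1 thus moved in opposite directions. The 6 members not called went both ways. Etv5, the most abundant member, had mean levels of 401 CPM in wildtype and 340 in GDel2 (log2 fold change -0.24). Dusp6 (-0.17), Spry2 (-0.51) and Epha2 (-0.02) also lay below 0, while Dusp4 (0.59) and Fos (0.78) lay above 0. Ier2 (0.36 ± 0.08, edgeR adjusted p = 0.00993) lost its call without GDel2 replicate 2 (0.0562), and Spred1 (-0.30 ± 0.10, edgeR adjusted p = 0.0486) in each of the 5 fits that left out a wildtype or GDel2 library (0.0770 to 0.176). Lower members numbered 1 in each of these 5 fits and 4 without either GDel1 replicate.

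Lysosome and autophagy genes, which break down cargo in acidic vesicles, had 18 of 48 tested members lower and 7 higher, with a median of -0.18. The segments split this list: of 38 members outside them, 18 were lower and 2 higher, with a median of -0.38, while 5 of the 10 members on them were higher. Hexa, the alpha subunit gene of beta-hexosaminidase, stood at 63.6, 62.3 and 59.4 CPM in wildtype and 15.1 and 12.1 in GDel2 (log2 fold change -2.19 ± 0.12, edgeR adjusted p = 9.89e-06). Ctsa, the cathepsin A gene, fell from 96.5, 96.1 and 102 CPM in wildtype to 53.4 and 53.9 in GDel2 (log2 fold change -0.87 ± 0.08, edgeR adjusted p = 1.41e-04). Psap, the precursor of the saposins, fell in GDel2, to 106 and 82.6 CPM from 159, 163 and 158 in wildtype (log2 fold change -0.76 ± 0.12, edgeR adjusted p = 0.00205). Npc2, which carries cholesterol out of lysosomes, had 168, 164 and 165 CPM in wildtype against 121 and 126 in GDel2 (log2 fold change -0.42 ± 0.10, edgeR adjusted p = 0.0105). The autophagy kinase gene Ulk1 (-0.81 ± 0.20, edgeR adjusted p = 0.0173) lost its call without GDel2 replicate 2 (0.0814). The beta-galactosidase gene Glb1 was higher, at 55.1, 54.2 and 55.7 CPM in wildtype and 80.6 and 78.9 in GDel2 (log2 fold change 0.54 ± 0.08, edgeR adjusted p = 0.00114), and Gabarapl2, on chromosome 8, rose by about its segment's shift (0.52, with 0.07 left). Higher members numbered 4 without wildtype replicate 1, wildtype replicate 2 or GDel2 replicate 2.

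Transcription factors that switch on lysosomal genes did not move together. Tfe3, a neighbour of Praf2 on chromosome X, stood at 110.1, 97.5 and 91.7 CPM in wildtype and 50.2 and 46 in GDel2 (log2 fold change -1.05 ± 0.10, edgeR adjusted p = 1.77e-04). Its relative Mitf, on chromosome 6, rose from 63.2, 61.7 and 62.5 CPM in wildtype to 139.6 and 162 in GDel2 (log2 fold change 1.27 ± 0.11, edgeR adjusted p = 8.78e-05), and remained above its segment by 0.76 (edgeR adjusted p = 0.00122). Wdr45, an autophagy gene also beside Praf2, fell in GDel2, to 14 and 13.1 CPM from 25.8, 26.6 and 22.9 in wildtype (log2 fold change -0.89 ± 0.14, edgeR adjusted p = 0.00150). In GDel1, Tfe3 was at -0.44 (edgeR adjusted p = 0.0607), Mitf at 0.11 (0.585) and Wdr45 at -0.03 (0.903).

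Genes of the integrated stress response and the ER stress response, which include amino acid synthesis enzymes and ER chaperones, had 13 of 24 tested members higher and none lower, with a median of 0.69. All 8 members on the segments were higher, and 5 of 16 outside them, with a median of 0.30 outside. After the segment medians were taken off, 8 members remained higher. Psat1 and Phgdh, enzymes of serine synthesis, both lie outside the segments. Psat1 had 216, 225 and 221 CPM in wildtype against 426 and 483 in GDel2 (log2 fold change 1.04 ± 0.09, edgeR adjusted p = 1.02e-04). Phgdh stood at 33.2, 35.3 and 39.9 CPM in wildtype and 68.2 and 69.9 in GDel2 (log2 fold change 0.93 ± 0.10, edgeR adjusted p = 2.43e-04). The lipoprotein receptor gene Vldlr rose from 1.77, 1.86 and 1.89 CPM in wildtype to 4.81 and 7.66 in GDel2 (log2 fold change 1.76 ± 0.24, edgeR adjusted p = 7.75e-04). Mthfd2, a mitochondrial folate enzyme gene on chromosome 6, rose in GDel2, to 98.8 and 105 CPM from 33.9, 34.9 and 36.5 in wildtype (log2 fold change 1.54 ± 0.10, edgeR adjusted p = 2.84e-05). Herpud1, of ER-associated degradation, on chromosome 8, had 6.55, 7.92 and 6.67 CPM in wildtype against 17.3 and 18 in GDel2 (log2 fold change 1.32 ± 0.14, edgeR adjusted p = 2.07e-04). Mthfd2 and Herpud1 remained above their segments by 1.03 and 0.88 (edgeR adjusted p = 1.88e-04 and 0.00190).

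By contrast, Asns and Pdia4 of chromosome 6, at 0.70 ± 0.10 and 0.71 ± 0.11, did not differ from their segment (edgeR adjusted p = 0.185 and 0.187). Calr, on chromosome 8, changed by 0.35 ± 0.09 (edgeR adjusted p = 0.0191). Its call was lost without wildtype replicates 1 (0.0557), 2 (0.0745) and 3 (0.0830) or GDel2 replicate 2 (0.106), and it lay at -0.09 against its segment. Atf4, which encodes the transcription factor of the integrated stress response, stood at 222, 209 and 206 CPM in wildtype and 215 and 229 in GDel2, with overlapping groups (log2 fold change 0.06 ± 0.10, edgeR adjusted p = 0.692). Its target Trib3 stood at 12, 12.1 and 12.8 CPM in wildtype and 11.7 and 8.89 in GDel2 (log2 fold change -0.26 ± 0.15, edgeR adjusted p = 0.212). The rises on this list therefore did not extend to these members.

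Naive pluripotency genes, which keep embryonic stem cells in the ground state, had 7 of 27 tested members higher and 9 lower, with a median of -0.18. Of the 23 members outside the segments, 5 were higher and 9 lower. The core factor gene Pou5f1 stood at 394, 381 and 404 CPM in wildtype and 402 and 386 in GDel2, with overlapping groups (log2 fold change 0.00 ± 0.09, edgeR adjusted p = 0.980). Tfcp2l1 was lower, at 1963, 1970 and 1858 CPM in wildtype and 1198 and 1007 in GDel2 (log2 fold change -0.81 ± 0.12, edgeR adjusted p = 0.00114). Gbx2 had 24.6, 21.1 and 18.1 CPM in wildtype against 8.36 and 8.17 in GDel2 (log2 fold change -1.36 ± 0.16, edgeR adjusted p = 4.49e-04). Zfp42, the Rex1 gene on chromosome 8, was higher, at 166, 166 and 176 CPM in wildtype and 357 and 397 in GDel2 (log2 fold change 1.15 ± 0.09, edgeR adjusted p = 5.81e-05), and remained above its segment by 0.71 (edgeR adjusted p = 6.76e-04). Tet2 rose to 769 and 786 CPM from 568, 544 and 519 (log2 fold change 0.52 ± 0.08, edgeR adjusted p = 0.00209). The list was thus split, with abundant members in either direction and Pou5f1 level. Nanog, on chromosome 6, changed by 0.40 ± 0.09 (edgeR adjusted p = 0.00956), a call lost without wildtype replicate 1 (0.0532), and lay at -0.11 against its segment (edgeR adjusted p = 0.404). Tdh changed by -0.45 ± 0.11, a call lost without GDel2 replicate 2 (edgeR adjusted p = 0.0577). Lower members numbered 6 without wildtype replicate 3 or GDel2 replicate 1 and 4 without GDel2 replicate 2.

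Formative and primed pluripotency genes, of the next stage of the embryo, had 6 of 18 tested members higher and 6 lower, with a median of 0.14. Their de novo DNA methyltransferases moved apart. Dnmt3a stood at 33.7, 32.5 and 30.7 CPM in wildtype and 59.7 and 61.5 in GDel2 (log2 fold change 0.91 ± 0.09, edgeR adjusted p = 1.94e-04). Dnmt3b fell from 85.7, 92 and 86.3 CPM in wildtype to 41.3 and 42.1 in GDel2 (log2 fold change -1.08 ± 0.09, edgeR adjusted p = 8.38e-05). Lefty1, a Nodal inhibitor gene, was lower, at 37, 36.2 and 39.4 CPM in wildtype and 22.3 and 22.8 in GDel2 (log2 fold change -0.74 ± 0.09, edgeR adjusted p = 5.54e-04). Lower members numbered 3 without GDel2 replicate 2.

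Genes of the first lineages to leave the embryo's stem cells were examined next. Trophoblast genes had 6 of 11 tested members lower and 3 higher (5 and 2 of 9 outside the segments), with a median of -0.51. Those that fell encode transcription factors. Gata2, on chromosome 6, fell in GDel2, to 1.42 and 1.23 CPM from 4.78, 3.9 and 5.2 in wildtype (log2 fold change -1.80 ± 0.25, edgeR adjusted p = 8.55e-04). Tfap2a had 12.7, 11.9 and 12.1 CPM in wildtype against 5.84 and 4.63 in GDel2 (log2 fold change -1.23 ± 0.18, edgeR adjusted p = 0.00111). Gata3 stood at 1.18, 1.11 and 1.1 CPM in wildtype and 0.237 and 0.145 in GDel2 (log2 fold change -2.53 ± 0.43, edgeR adjusted p = 0.00268). Cdx2 fell from 1.91, 1.86 and 1.21 CPM in wildtype to 0.395 and 0.361 in GDel2 (log2 fold change -2.10 ± 0.39, edgeR adjusted p = 0.00403). None of these groups overlapped. The keratin gene Krt8 went the other way, at 1.55, 2.04 and 1.42 CPM in wildtype and 4.18 and 4.34 in GDel2 (log2 fold change 1.35 ± 0.23, edgeR adjusted p = 0.00273). Tfap2c (-0.51 ± 0.17) and Tead4 (0.38 ± 0.12) lost their calls in each of the 5 fits that left out a wildtype or GDel2 library (edgeR adjusted p = 0.0541 to 0.308 and 0.0517 to 0.289). Higher members numbered 1 in each of these fits, and lower members 4. Summed trophoblast markers were at most 1.03 TPM in any library.

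Primitive endoderm genes had 4 of 12 tested members higher and 3 lower, with a median of 0.43. Among the 9 members outside the segments, 3 were higher and 3 lower, with a median of 0.11. Apoe, a lipoprotein gene, was lower, at 99, 103 and 99.1 CPM in wildtype and 39.5 and 42 in GDel2 (log2 fold change -1.30 ± 0.13, edgeR adjusted p = 1.73e-04). The collagen chaperone gene Serpinh1 rose in GDel2, to 25.6 and 25.7 CPM from 12.3, 10.8 and 10.2 in wildtype (log2 fold change 1.21 ± 0.12, edgeR adjusted p = 1.44e-04). The laminin genes Lamc1 (-0.72 ± 0.18) and Lama1 (-0.50 ± 0.16) are also members of the basement membrane list and are fragile calls: Lamc1 was lost without wildtype replicates 1 (0.0541) and 2 (0.0540) or GDel2 replicate 2 (edgeR adjusted p = 0.139). Lama1 was lost without wildtype replicates 1 (0.0951), 2 (0.120) and 3 (0.112) or GDel2 replicate 2 (edgeR adjusted p = 0.291). Higher members numbered 2 without GDel2 replicate 1 or GDel2 replicate 2, and lower members 1 without wildtype replicate 1, wildtype replicate 2 or GDel2 replicate 2.

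Mesendoderm genes, of the primitive streak, had 3 of 5 tested members higher and 1 lower, with a median of 1.41. Eomes, a T-box factor gene, had 4.05, 4.76 and 4.36 CPM in wildtype against 17.8 and 16 in GDel2 (log2 fold change 1.94 ± 0.14, edgeR adjusted p = 4.81e-05). Mixl1 (1.41 ± 0.36) lost its call without each wildtype replicate and without GDel2 replicate 2 (edgeR adjusted p = 0.0525, 0.0520, 0.0509 and 0.164). Msx2 (-0.76 ± 0.22) lost it in each of the 5 fits that left out a wildtype or GDel2 library (0.0723 to 0.107). The other 11 listed genes of this lineage were too low to test.

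Neuroectoderm and neuron genes had 7 of 13 tested members higher and none lower (5 and 0 of 11 outside the segments), with a median of 0.69. Tubb3, the neuronal beta tubulin gene on chromosome 8, rose from 29.9, 30.2 and 29.2 CPM in wildtype to 81.6 and 85.4 in GDel2 (log2 fold change 1.49 ± 0.08, edgeR adjusted p = 1.22e-05), and remained above its segment by 1.04 (edgeR adjusted p = 7.41e-05). Crmp1, a gene of axon guidance, rose in GDel2, to 16.7 and 13.6 CPM from 2.87, 2.85 and 4.04 in wildtype (log2 fold change 2.20 ± 0.22, edgeR adjusted p = 2.01e-04). The neural progenitor gene Sox1 had 2.21, 2.47 and 2.99 CPM in wildtype against 6.0 and 6.36 in GDel2 (log2 fold change 1.26 ± 0.22, edgeR adjusted p = 0.00282). Nestin, encoded by Nes, changed by 0.60 ± 0.13, a call lost without GDel2 replicate 2 (edgeR adjusted p = 0.0588). Neuron markers summed to 55.9 to 70.7 TPM in wildtype and to 86.7 and 82.9 in GDel2, with Dcx at 0 in all 5 libraries. Of the 3 neuron markers tested, Tubb3 alone was called. Stmn2 changed by -0.04 (edgeR adjusted p = 0.805) and Map2 by -0.34 (edgeR adjusted p = 0.235).

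Germline genes had 10 of 22 tested members higher and 3 lower (7 and 2 of 16 outside the segments), with a median of 1.08. Dazl, an RNA-binding protein gene of germ cells, stood at 8.39, 9.96 and 9.45 CPM in wildtype and 18.7 and 20.1 in GDel2 (log2 fold change 1.06 ± 0.14, edgeR adjusted p = 6.74e-04). Ddx4, the Vasa helicase gene, rose from 2.65, 3.96 and 3.73 CPM in wildtype to 8.76 and 8.75 in GDel2 (log2 fold change 1.33 ± 0.21, edgeR adjusted p = 0.00181). Sycp3, of the synaptonemal complex, rose in GDel2, to 4.81 and 5.42 CPM from 1.1, 1.05 and 1.52 in wildtype (log2 fold change 2.04 ± 0.23, edgeR adjusted p = 3.40e-04). Hormad1 had 2.06, 2.29 and 3.36 CPM in wildtype against 6.71 and 7.88 in GDel2 (log2 fold change 1.49 ± 0.23, edgeR adjusted p = 0.00158). Stra8, on chromosome 6, stood at 0.0736, 0.309 and 0.21 CPM in wildtype and 3.39 and 2.96 in GDel2 (log2 fold change 3.91 ± 0.45, edgeR adjusted p = 3.51e-04). Tuba3a, also on chromosome 6, rose from 5.89, 4.45 and 4.94 CPM in wildtype to 21.7 and 21.3 in GDel2 (log2 fold change 2.08 ± 0.19, edgeR adjusted p = 1.17e-04). Rpl10l rose in GDel2, to 29.1 and 30.1 CPM from 8.98, 9.96 and 13.3 in wildtype (log2 fold change 1.46 ± 0.23, edgeR adjusted p = 0.00200). Rec8, the meiotic cohesin gene, went the other way, at 14.8, 15.6 and 14.7 CPM in wildtype and 6.63 and 4.92 in GDel2 (log2 fold change -1.38 ± 0.16, edgeR adjusted p = 3.46e-04). So did Dnmt3l, a cofactor of DNA methylation in germ cells, at 43.4, 45 and 41.1 CPM in wildtype and 28.7 and 28.8 in GDel2 (log2 fold change -0.58 ± 0.09, edgeR adjusted p = 0.00152). The counts were 9 to 11 higher and 2 or 3 lower in the fits that left out 1 library.

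Imprinted genes, expressed from the copy of one parent, had 20 of 52 tested members higher and 13 lower (14 and 10 of 41 outside the segments), with a median of 0.17. Beside Plagl1 and Mest, the noncoding RNAs of the Dlk1 and Meg3 domain on chromosome 12 rose. Rian had 544, 497 and 508 CPM in wildtype against 1076 and 1286 in GDel2 (log2 fold change 1.19 ± 0.11, edgeR adjusted p = 1.54e-04). Meg3 stood at 156, 148 and 145 CPM in wildtype and 299 and 249.6 in GDel2 (log2 fold change 0.87 ± 0.12, edgeR adjusted p = 0.00102). Of the listed genes on distal chromosome 7, Cd81, Igf2, Cdkn1c, Phlda2, Ascl2 and Tssc4 fell, while H19, the noncoding RNA gene beside Igf2, rose, and Kcnq1ot1, Nap1l4, Slc22a18 and Tnfrsf23 did not pass. H19 had 5 counts over the wildtype libraries and 80 over the GDel2 libraries (log2 fold change 4.78 ± 0.54, edgeR adjusted p = 5.54e-04). Cd81 fell from 267, 253 and 247 CPM in wildtype to 143 and 153 in GDel2 (log2 fold change -0.79 ± 0.11, edgeR adjusted p = 8.37e-04). The growth factor gene Igf2 fell in GDel2, to 0.868 and 0.94 CPM from 3.97, 3.53 and 3.73 in wildtype (log2 fold change -2.04 ± 0.28, edgeR adjusted p = 8.30e-04). The CDK inhibitor gene Cdkn1c had 2.43, 2.23 and 2.57 CPM in wildtype against 0.789 and 0.651 in GDel2 (log2 fold change -1.74 ± 0.26, edgeR adjusted p = 0.00145). Impact rose by 0.46 ± 0.09, a call lost without GDel2 replicate 2 (edgeR adjusted p = 0.0544). Lower members numbered 7 without that library.

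Genes of cell adhesion and the basement membrane, the laminin-rich sheet that cells attach to, had 12 of 29 tested members lower and 5 higher (11 and 2 of 23 outside the segments), with a median of -0.38. Their cadherins moved apart. Cdh2, N-cadherin, stood at 11.2, 11 and 10.6 CPM in wildtype and 2.92 and 2.82 in GDel2 (log2 fold change -1.93 ± 0.17, edgeR adjusted p = 9.79e-05). Cdh1, E-cadherin on chromosome 8, rose from 295, 299 and 305 CPM in wildtype to 491 and 445 in GDel2 (log2 fold change 0.64 ± 0.08, edgeR adjusted p = 5.81e-04), about as much as its segment with 0.20 left (edgeR adjusted p = 0.101). The tight junction gene Cldn6 was lower, at 6.18, 4.08 and 6.14 CPM in wildtype and 2.05 and 2.02 in GDel2 (log2 fold change -1.42 ± 0.24, edgeR adjusted p = 0.00256). The fibronectin receptor subunit gene Itga5 was higher, at 30.7, 32 and 33.4 CPM in wildtype and 66.4 and 57.8 in GDel2 (log2 fold change 0.95 ± 0.13, edgeR adjusted p = 9.37e-04), while fibronectin itself was lower. Fn1 fell in GDel2, to 990.0 and 528 CPM from 2022, 1999 and 1953 in wildtype, the GDel2 replicates being farther apart than the wildtype ones (log2 fold change -1.39 ± 0.36, edgeR adjusted p = 0.0285). The Fn1 call was lost without wildtype replicates 1 (0.0604), 2 (0.0617) and 3 (0.0567) or GDel2 replicate 2 (edgeR adjusted p = 0.102). The count of lower members on this list was 6, 6 and 7 without wildtype replicates 1, 2 and 3, and 4 without GDel2 replicate 2. Nid2 (-0.71 ± 0.15) was among the calls lost without GDel2 replicate 2 (edgeR adjusted p = 0.0640).

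On the list of fibroblast genes, 3 of 6 tested members were lower and 1 higher, with a median of -0.64. Vim, the vimentin gene, had 326, 325 and 309 CPM in wildtype against 160.0 and 187 in GDel2 (log2 fold change -0.88 ± 0.10, edgeR adjusted p = 2.77e-04). Fbln1, the fibulin gene, stood at 75.4, 76.1 and 70.4 CPM in wildtype and 27.9 and 20.7 in GDel2 (log2 fold change -1.61 ± 0.13, edgeR adjusted p = 7.91e-05). Fn1 is the third fall. Thy1 rose by 1.42 ± 0.33, a call lost without GDel2 replicate 2 (edgeR adjusted p = 0.0747). The 7 fibroblast feeder markers had mean levels of 0 to 1.05 TPM over the 5 libraries. Their sums were 0.44 to 0.76 TPM in wildtype and 1.48 and 2.27 TPM in GDel2. GDel1 had a median of -0.58 on the list of fibroblast genes, with no member called. Whether feeder cells took part in these changes was not tested.

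Targets of p53 had 10 of 28 tested members lower and 3 higher (10 and 2 of 26 outside the segments), with a median of -0.32. Sesn2, a stress-response gene, fell from 89.1, 85.4 and 86.2 CPM in wildtype to 54.1 and 46.3 in GDel2 (log2 fold change -0.79 ± 0.10, edgeR adjusted p = 5.45e-04). The carbonyl reductase gene Dcxr fell in GDel2, to 4.26 and 3.76 CPM from 7.95, 8.66 and 9.35 in wildtype (log2 fold change -1.11 ± 0.18, edgeR adjusted p = 0.00193). Tigar, a fructose bisphosphatase gene on chromosome 6, was higher, at 86.3, 83.6 and 81.4 CPM in wildtype and 152 and 144 in GDel2 (log2 fold change 0.82 ± 0.08, edgeR adjusted p = 1.55e-04), and remained above its segment by 0.32 (edgeR adjusted p = 0.0179). Cdkn1a, the p21 gene, stood at 45.8, 47.9 and 50.8 CPM in wildtype and 42.1 and 37.1 in GDel2 (log2 fold change -0.28 ± 0.12, edgeR adjusted p = 0.0985) and did not pass. The abundant members were fragile calls. Trp53 (-0.47 ± 0.11) was lost without GDel2 replicate 2 (edgeR adjusted p = 0.0738), Zmat3 (-0.75 ± 0.19) without wildtype replicate 1 (0.0512) or GDel2 replicate 2 (edgeR adjusted p = 0.116), and Trp53inp1 (-0.57 ± 0.15) in each of the 5 fits that left out a wildtype or GDel2 library (edgeR adjusted p = 0.0533 to 0.0980). Lower members numbered 4 without GDel2 replicate 2.

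DNA methylation and Polycomb genes had 9 of 38 tested members higher and 8 lower, with a median of -0.03. The 32 members outside the segments had 6 higher and 8 lower, with a median of -0.10. The core subunits of Polycomb repressive complex 2 moved apart. Suz12 stood at 604, 641 and 619 CPM in wildtype and 338 and 358 in GDel2 (log2 fold change -0.83 ± 0.09, edgeR adjusted p = 2.46e-04). Ezh2, on chromosome 6, rose from 125, 134 and 121 CPM in wildtype to 203 and 231 in GDel2 (log2 fold change 0.78 ± 0.09, edgeR adjusted p = 3.55e-04), with 0.27 left against its segment (edgeR adjusted p = 0.0511). Tet3, on chromosome 6, rose in GDel2, to 24.8 and 18.7 CPM from 6.92, 6.49 and 5.41 in wildtype (log2 fold change 1.80 ± 0.20, edgeR adjusted p = 3.05e-04). Rybp (0.34 ± 0.10) lost its call in each of the 5 fits that left out a wildtype or GDel2 library (edgeR adjusted p = 0.0759 to 0.120), and Dnmt1 (-0.50 ± 0.14) without wildtype replicates 1, 2 and 3 (edgeR adjusted p = 0.0649, 0.0763 and 0.0637) or GDel2 replicate 2 (0.176). The lower members numbered 5 without each of the wildtype replicates and 4 without GDel2 replicate 2.

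Factors tied to the structures that the series is about were read next. CTCF and cohesin factors had 2 of 23 tested members higher and 2 lower, with a median of 0.05, and none of the 18 outside the segments was higher. Ctcf, on chromosome 8, had 188, 189 and 174 CPM in wildtype against 222 and 224 in GDel2 (log2 fold change 0.28 ± 0.10, edgeR adjusted p = 0.0498), a call lost in each of the 5 fits that left out a wildtype or GDel2 library (0.114 to 0.166), and lay at -0.16 against its segment (edgeR adjusted p = 0.236). The cohesin subunit gene Rad21 stood at 317, 329.6 and 321 CPM in wildtype and 322 and 318 in GDel2, with overlapping groups (log2 fold change -0.01 ± 0.08, edgeR adjusted p = 0.928). Cbx3, a heterochromatin protein gene on chromosome 6, changed by 0.79 ± 0.11 (edgeR adjusted p = 8.61e-04), with 0.28 left against its segment (edgeR adjusted p = 0.0827). Calls of Cdca5 (-0.36 ± 0.09) and Vezf1 (-0.26 ± 0.09) were lost without wildtype replicates 1 (0.0575 and 0.148) and 2 (0.0547 and 0.113) or GDel2 replicate 2 (edgeR adjusted p = 0.0952 and 0.136), and Vezf1 also without wildtype replicate 3 (0.121) or GDel2 replicate 1 (0.0981). Without either GDel1 replicate, 5 members were higher and 4 lower.

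Factors of R-loops and G-quadruplexes had 8 of 35 tested members higher and 4 lower, with a median of 0.04. The 31 members outside the segments had 5 higher and 4 lower, with a median of 0.02. Brip1, the FANCJ helicase that unwinds G-quadruplexes, was higher, at 25.2, 23.5 and 26.1 CPM in wildtype and 37.3 and 45.5 in GDel2 (log2 fold change 0.73 ± 0.12, edgeR adjusted p = 0.00205). Dhx36, another G-quadruplex helicase gene, stood at 192, 195 and 191 CPM in wildtype and 186 and 213 in GDel2 (log2 fold change 0.05 ± 0.10, edgeR adjusted p = 0.731). Rnaseh1, which digests the RNA of R-loops, stood at 6.11, 6.8 and 7.67 CPM in wildtype and 6.23 and 7.66 in GDel2 (log2 fold change 0.02 ± 0.16, edgeR adjusted p = 0.953). Both had overlapping groups. Hnrnpf and Cnbp of chromosome 6 changed by 0.64 ± 0.12 and 0.63 ± 0.08 and did not differ from their segment (edgeR adjusted p = 0.440 and 0.303). The nucleolin gene Ncl (0.32 ± 0.09) lost its call in each of the 5 fits that left out a wildtype or GDel2 library (edgeR adjusted p = 0.0916 to 0.147). Higher members numbered 4 without each wildtype replicate or GDel2 replicate 2, and lower members 2 without wildtype replicate 2 or GDel2 replicate 2.

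Metabolic lists held both rises and falls. Glycolysis and hypoxia genes had 8 of 31 tested members higher and 5 lower, with a median of 0.00, and 4 and 5 of 23 outside the segments. On chromosome 6, Gapdh had 1051, 977 and 1121 CPM in wildtype against 1491 and 1544 in GDel2 (log2 fold change 0.53 ± 0.09, edgeR adjusted p = 0.00294). The hexokinase gene Hk2 stood at 366, 379 and 381 CPM in wildtype and 614 and 573 in GDel2 (log2 fold change 0.66 ± 0.08, edgeR adjusted p = 5.61e-04). Both moved by about their segment's shift, with 0.03 and 0.16 left. Slc2a3 (0.26 ± 0.09) lost its call in each of the 5 fits that left out a wildtype or GDel2 library (edgeR adjusted p = 0.104 to 0.177), and Gpi1 (-0.32 ± 0.08) without wildtype replicates 1, 2 and 3 (0.0629, 0.0577 and 0.0791) or GDel2 replicate 2 (edgeR adjusted p = 0.105). Higher members numbered 5 without wildtype replicates 1 or 2 or GDel2 replicate 2 and 4 without GDel2 replicate 1, and lower members 3 without GDel2 replicate 2.

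Cholesterol synthesis genes had 4 of 25 tested members higher and 3 lower, with a median of -0.02. Among the 23 members outside the segments, 2 were higher and 3 lower, smaller shares than over all placed genes there. Enzymes of this pathway were called in either direction. Sqle, squalene epoxidase, fell in GDel2, to 103 and 107 CPM from 216, 215 and 217 in wildtype (log2 fold change -1.04 ± 0.08, edgeR adjusted p = 5.87e-05). Srebf2, the gene of their transcription factor, was lower, at 209, 200.4 and 217 CPM in wildtype and 140.4 and 113 in GDel2 (log2 fold change -0.72 ± 0.14, edgeR adjusted p = 0.00409). Msmo1, on chromosome 8, had 138, 138 and 137 CPM in wildtype against 237 and 264 in GDel2 (log2 fold change 0.87 ± 0.13, edgeR adjusted p = 0.00129), above its segment by 0.42 (edgeR adjusted p = 0.0383). Lower members numbered 5 without either GDel1 replicate.

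Cyclins and genes of the G1 to S transition, among them Ccnd2 and Ccnd1, had 5 of 30 tested members higher and 4 lower, with a median of 0.06. The 26 members outside the segments had 3 higher and 4 lower. Cdc25a (-0.36 ± 0.08) lost its call without wildtype replicate 2 (edgeR adjusted p = 0.0566) or GDel2 replicate 2 (0.0738), and Cdk2 (-0.30 ± 0.10) in each of the 5 fits that left out a wildtype or GDel2 library (edgeR adjusted p = 0.0661 to 0.161). E2f4, on chromosome 8 (0.35 ± 0.10), lost its call without wildtype replicates 1, 2 and 3 (edgeR adjusted p = 0.0809, 0.0706 and 0.0953) or GDel2 replicate 1 (0.184) and lay at -0.09 against its segment. Lower members numbered 2 without wildtype replicate 2 or GDel2 replicate 2, and 7 without either GDel1 replicate.

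**Figure D5:**
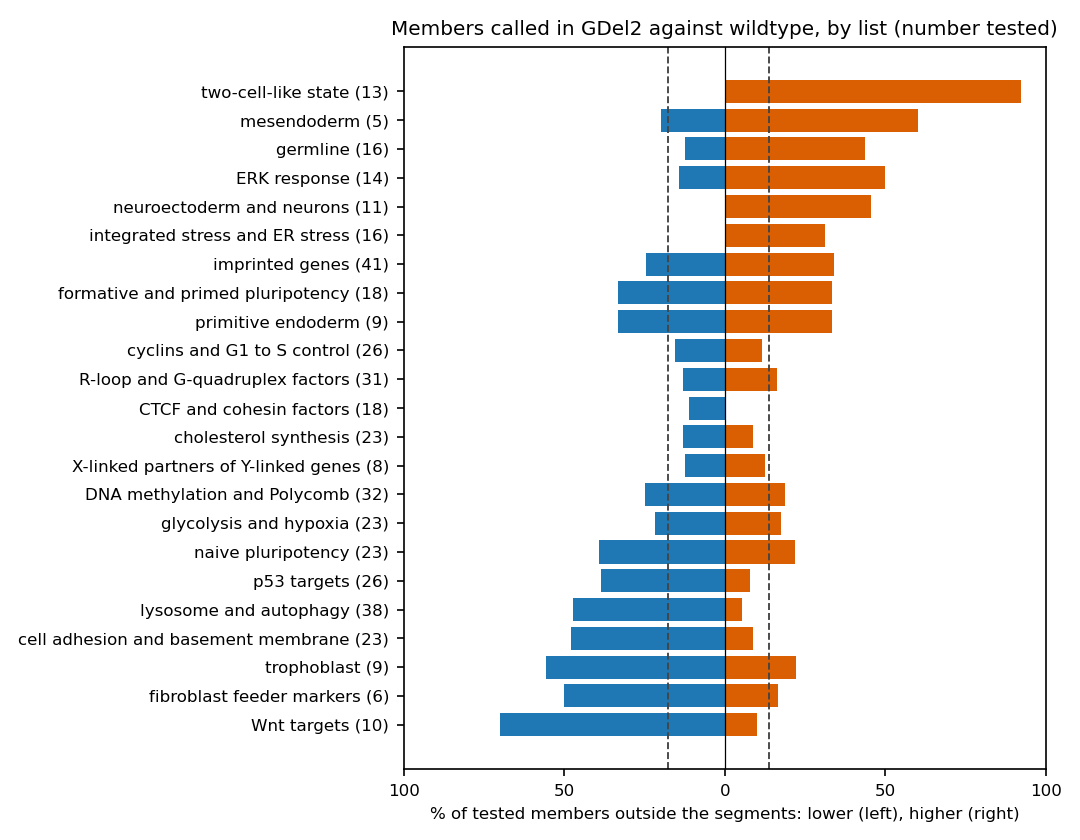
Share of the tested members of each list, apart from the Y-linked list, outside the shifted segments (number in brackets) that were called lower (left, blue) or higher (right, orange) in GDel2 against wildtype, with dashed lines at 17.8% and 13.9%, the shares over all placed genes outside the segments. Of the lists shown, the 2-cell-like list reaches furthest to the right (12 of 13) and Wnt targets furthest to the left (7 of 10). Most tested 2-cell-like members passed the filter on low counts only through GDel2.

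Of the 130 genes that the rule for names gave, all past the threshold for GDel2 against wildtype, 105 also differed between GDel2 and GDel1. Praf2 and Plagl1 alone among them passed for GDel1 against wildtype. The comparisons share libraries, and the rule chose these genes on the GDel2 values.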

How the data were processed

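RNA of 7 libraries in 3 groups (3 wildtype, 2 GDel1, 2 GDel2) was used, and the other 59 samples were not analysed here. Per the submitters' processing notes, STAR, RSEM, Bowtie2, deepTools and HiC-Pro and the mm10 build were used, without versions. The sources used here name neither a strand setting nor an annotation release. The deposited expected counts are RSEM estimates per gene, not scaled for depth, and were rounded. The deposited TPM, scaled by the authors for length and library, served for marker levels and limma. The deposited FPKM and lengths in bases were not used. Depth was 12316853 to 18762704 expected counts per library.

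Symbols matched 55141 identifiers, and 13844 tested genes had a position in RefSeq's GRCm38.p6 table. edgeR 4.0.16 in R 4.3.3 kept genes with filterByExpr (minimum count 10, minimum total 15, 99.9% of counts), scaled by TMM, and tested 3 groups in 1 quasi-likelihood fit with robust dispersion. The Benjamini-Hochberg method was applied over all genes, with a threshold of 0.05. All adjusted p are from edgeR unless limma 3.58.1 or DESeq2 1.42.0 is named. On simulated data with 200 of 13620 genes changed 2-fold, 70.5% were recovered and 0.1% of the others called.

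The rule for names took Praf2, kept Y-linked genes, the 10 largest rises and falls outside the segments (at least 5 CPM in the higher group, no overlap), the 3 largest each way against each segment under the same conditions, and up to 4 called members of each of 24 lists by abundance. Other names were chosen after their values were seen. Members, segments and lists were chosen with earlier results of these data known. Numbers shared by labels were not used to pair samples in the main fit. Alternatives were other scalings, filters, tools, a replicate block and leaving out each library. A few genes are not reported here.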

Additional observations from a re-analysis of the deposited data

Results flagged for a closer look

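Praf2 and Plagl1 passed the threshold in both deletions against wildtype and also differed between the deletions by a test of that difference. Praf2 was lower in both, with GDel2 above GDel1 by 0.50 on the log2 scale (edgeR adjusted p = 0.0183). Plagl1 was higher in GDel2 and lower in GDel1, a difference of 6.31 on the log2 scale (edgeR adjusted p = 8.95e-06). No explanation was weighed.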

How the results depend on the processing

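Praf2 stayed lower and called in every alternative run. Of 5099 genes called, a replicate block left 2296 and limma on log2(TPM + 1) left 2604, and leaving out 1 library gave 2713 to 6531. Outside the segments the 3844 calls became 1630 with the replicate block and 1916 with limma, and 1888 to 5068 with 1 library left out. On the segments the 985 calls became 536 against the segment median, 552 with the replicate block and 501 with limma, and 700 to 1117 with 1 library left out. List members called numbered 259, with 151 under the replicate block, 167 with limma and 174 to 307 with 1 library left out. The labels' replicate numbers did not pair the samples: deviations of same-numbered wildtype and GDel2 libraries had correlations of -0.11 and -0.09.

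The median changes of chromosome 6, chromosome 8 and the chromosome 11 segment were 0.57, 0.51 and 0.61 with scaling from genes outside the segments, and 0.31, 0.27 and 0.32 with limma, where adding 1 TPM draws low genes towards 0. With no filter they were 0.48 and 0.41 on chromosomes 6 and 8. With 1 library left out they ranged over 0.50 to 0.52, 0.40 to 0.47 and 0.47 to 0.55. Of the 129 genes that the rule named beside Praf2, 77 kept their direction and their call in all alternatives run for them, and no other alternative than the segment fit turned a direction. Against their segment, Nanog (-0.11), Tead4 (-0.12), Ier2 (-0.087), Calr (-0.095), Slc2a3 (-0.24), Ctcf (-0.16), E2f4 (-0.094) and Rybp (-0.17) turned negative, by construction of that fit.

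With 2 GDel2 libraries, genes of a few CPM rest on few reads, which limits the precision of their changes.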
